A study of Homo sapiens with 10 samples.

Results

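The genes described here encode the protein layers that join a chromosome to the mitotic spindle: the centromeric nucleosome and its loading factors, the kinetochore, and the spindle checkpoint. The list holds 35 genes, grouped by function and chosen with earlier results of these arrays known. A gene was counted as measured when the array annotation gave a probe set to that gene alone, and 26 of the 35 were measured, out of 14232 genes measured in this way. CENPL, CENPN, CENPO, CENPP, ZWILCH, BUB1B, SKA2 and SKA3 lay on probe sets that carry several gene symbols, and CENPW had no annotated probe set, so these 9 genes have no value here. Of the measured genes, 11 of 16 belong to the group of CENP and deposition genes (symbols starting with CENP, with HJURP, MIS18A and OIP5), and 15 of 19 to the group of outer kinetochore and checkpoint genes.

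Expression was measured on arrays in U2OS cells, a human osteosarcoma line, given PD0332991 (palbociclib, which blocks CDK4 and CDK6, the kinases that D-type cyclins activate) for 4 h, or given the solvent DMSO for 4 h. Both groups came from the same line, were seeded at 25% density and grown for 30 h in McCoy medium with 10% serum before treatment. The printed dose of 1 mM is doubtful, since cells are usually given micromolar amounts of this compound, and nothing in the arrays checks it. Each treatment has 5 biological replicates, and the array names divide the 10 arrays into array set 1 (replicates 1 to 3 of both treatments) and array set 2 (replicates 4 and 5 of both). U2OS is 1 line, so the replicates measure the spread between cultures of that line.

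Kinetochores are built on nucleosomes that carry CENP-A in place of histone H3. The chaperone HJURP brings new CENP-A to centromeres after mitosis, at sites licensed by the Mis18 proteins, and the constitutive centromere-associated network (CCAN) sits on these nucleosomes through the whole cell cycle. In mitosis the outer kinetochore, made of the MIS12, NDC80 and KNL1 assemblies, binds microtubules, and kinases and checkpoint proteins recruited to it hold back anaphase until every chromosome is attached. Many of these genes are transcribed in a cell cycle-dependent way, some through E2F factors near the start of S phase and many through MuvB complexes, which repress them in G1 as part of DREAM, activate them in G2 with FOXM1, and bind a promoter element called the cell cycle genes homology region (CHR).

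Promoter sequence was in hand for 20 of the 26 measured genes, from RefSeq on build GRCh38.p14, as the 250 bases before and 50 after the first listed start of each gene. Whether the first listed start of a gene is the one used in these cells was not checked. The CENPI window in particular may not be a promoter, and CENPI is counted below among the genes without a match. Promoters of CENPM, KNTC1, BUB3, TTK, CENPH and MIS18A were not used here. The E2F spellings searched were TTTCCCGC, TTTGGCGC and TTTCGCGC, and the CHR spellings were TTTGAA and TTCGAA, on both strands, with no overlap between an E2F and a CHR match in these promoters. The 250 bases before the start are shown for the 4 genes with promoter sequence whose treatment p was smallest and for CENPA, the centromeric histone itself. Capitals mark the matched letters, read 5′ to 3′ on the strand of the gene.
DSN1: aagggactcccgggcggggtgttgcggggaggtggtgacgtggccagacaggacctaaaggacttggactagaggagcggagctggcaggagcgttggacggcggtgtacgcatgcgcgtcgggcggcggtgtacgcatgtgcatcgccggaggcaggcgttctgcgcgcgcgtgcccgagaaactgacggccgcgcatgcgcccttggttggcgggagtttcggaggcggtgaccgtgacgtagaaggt
ZWINT: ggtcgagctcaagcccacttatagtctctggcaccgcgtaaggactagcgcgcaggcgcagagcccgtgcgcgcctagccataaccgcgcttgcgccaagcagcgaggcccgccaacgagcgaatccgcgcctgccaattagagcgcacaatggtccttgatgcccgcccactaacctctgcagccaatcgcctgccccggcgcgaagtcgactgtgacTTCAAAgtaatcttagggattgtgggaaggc
HJURP: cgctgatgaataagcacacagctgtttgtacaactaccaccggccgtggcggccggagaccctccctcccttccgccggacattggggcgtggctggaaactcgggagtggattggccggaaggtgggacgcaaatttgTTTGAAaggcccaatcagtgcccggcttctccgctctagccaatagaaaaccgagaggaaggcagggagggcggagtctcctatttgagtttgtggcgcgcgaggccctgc
MIS12: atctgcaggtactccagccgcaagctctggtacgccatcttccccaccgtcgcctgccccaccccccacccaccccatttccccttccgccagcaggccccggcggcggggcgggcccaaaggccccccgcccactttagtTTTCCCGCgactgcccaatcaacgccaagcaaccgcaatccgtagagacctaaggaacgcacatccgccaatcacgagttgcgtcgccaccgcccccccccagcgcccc
CENPA: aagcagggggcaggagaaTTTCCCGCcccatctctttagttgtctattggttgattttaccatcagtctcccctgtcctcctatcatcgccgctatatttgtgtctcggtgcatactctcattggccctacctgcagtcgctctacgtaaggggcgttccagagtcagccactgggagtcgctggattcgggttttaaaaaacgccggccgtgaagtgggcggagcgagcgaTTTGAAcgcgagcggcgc
These windows lie at chr20:36773764-36774013 (minus strand) for DSN1, chr10:56361260-56361509 (minus strand) for ZWINT, chr2:233854536-233854785 (minus strand) for HJURP, chr17:5486124-5486373 (plus strand) for MIS12 and chr2:26785806-26786055 (plus strand) for CENPA. DSN1 held none of these spellings in its window. ZWINT held TTTGAA on the opposite strand with its first base at -31 relative to the start, and HJURP held it at -111. MIS12 held TTTCCCGC at -109, while CENPA held TTTCCCGC at -232 and TTTGAA at -18.

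An E2F spelling was found in 4 of the 20 promoters (CENPA, OIP5, CENPU and MIS12), which is 20%. The share was 2.79% of 27305 promoters, the first listed for each gene symbol. It was 3.79% of the 11386 promoters of genes measured alone on a probe set. A CHR spelling was found in 11 of 20, which is 55%, against 16.6% and 13.1% of those promoters. By group, E2F spellings were in 3 of 8 CENP and deposition promoters and 1 of 12 outer kinetochore and checkpoint promoters, and CHR spellings in 3 of 8 and 8 of 12. Genes with an E2F spelling had a median log2 fold change of -0.10, against -0.07 for genes without one. Genes with a CHR spelling had a median of -0.10, against -0.09 without. The order of these medians was not the same in both gene groups. Outer kinetochore and checkpoint genes with a CHR spelling had a median of -0.04 (8 genes), against -0.22 without, and CENP and deposition genes with one had -0.11 (3 genes), against -0.09 without. With an E2F spelling the CENP and deposition genes had a median of -0.10 (3 genes), against -0.17 without, and the single outer gene with one, MIS12, had -0.36, against a median of -0.05 for the other outer genes. None of these differences was tested. A match is a description of these letters and does not show that a factor binds there.

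After 4 h of PD0332991, none of the 26 genes passed the test in either direction (limma, adjusted p under 0.05, array set as a covariate). Under the same rule, 0.0409% of all probe sets were called lower and 0.0091% higher. Most of the 26 had values slightly below those in DMSO: 19 were lower and 7 higher. Their median log2 fold change was -0.09, while 55.3% of all measured genes were lower, with a median of -0.02. At an unadjusted limma p under 0.05, 5 genes were lower (DSN1, ZWINT, HJURP, CENPM and MIS12) and 0 were higher, which is 19.2% of the 26, against 2.52% of all measured genes lower and 1.3% higher. These shares are a description of genes chosen with earlier results of these arrays known. In the same fit the cyclin E gene CCNE2 and the transcription factor gene E2F2 changed by -1.89 and -1.01 and passed (limma adjusted p = 0.00911 and 0.00289). The median half-width of the 95% confidence intervals of the 26 was 0.35 on the log2 scale. DSN1 (-0.56), CENPM (-0.45), ZWINT (-0.43), HJURP (-0.37), MIS12 (-0.36) and KNTC1 (-0.354) exceeded that in size and still did not pass after adjustment. In RNA from whole cultures, fewer cells that express a gene and less RNA per cell cannot be told apart.

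**Figure D1:**
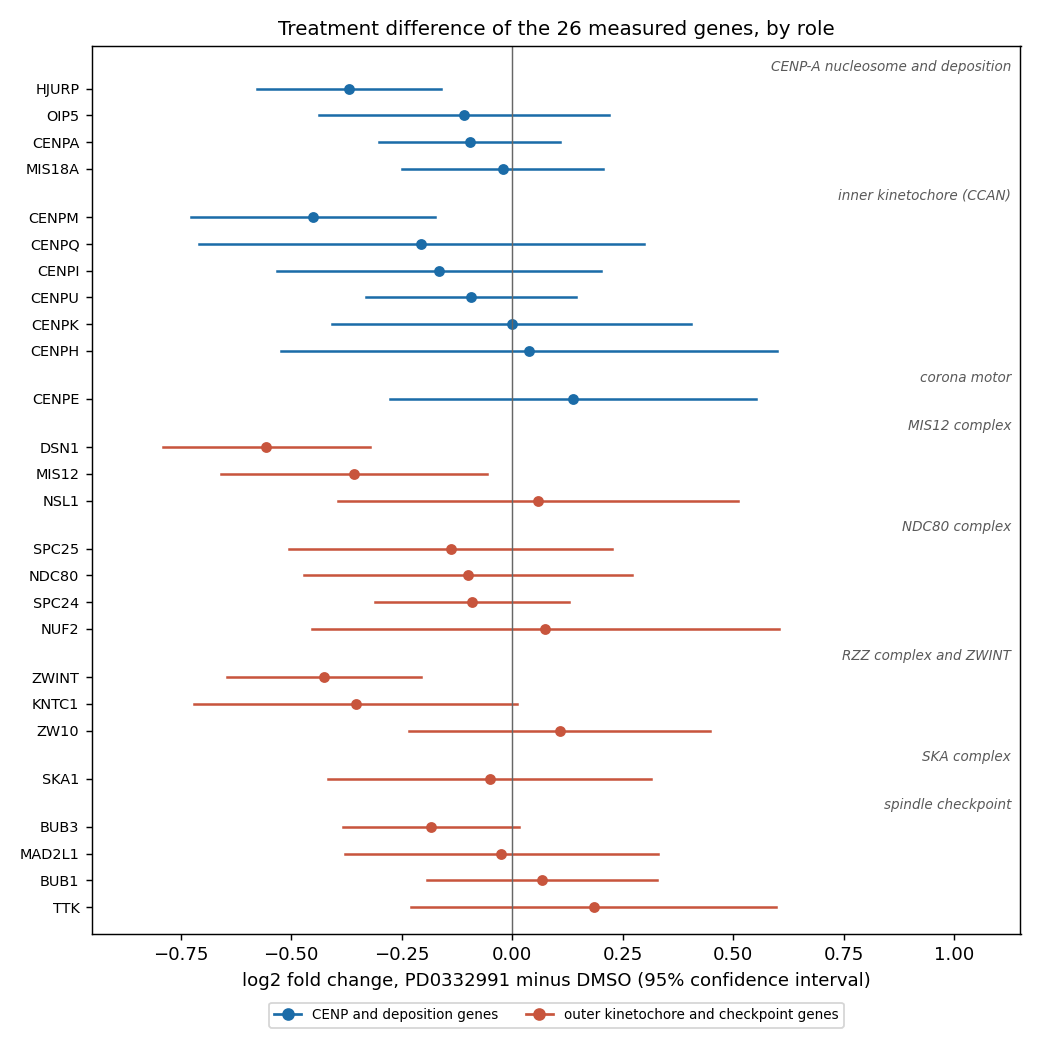
Log2 fold change (PD0332991 minus DMSO, n = 5 arrays each) of the 26 measured genes with 95% confidence intervals from limma, grouped by role; blue marks CENP and deposition genes and red marks outer kinetochore and checkpoint genes. The intervals of DSN1, ZWINT, HJURP, CENPM and MIS12 lie below 0, the other 21 include 0, and no gene passed after adjustment over all probe sets.

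The whole-table quantities were these. The array medians lay between 6.95 and 7.06, and the interquartile ranges between 3.18 and 3.68. DMSO replicate 1 stood apart, with a mean correlation of 0.963 with the other arrays, against 0.979 to 0.984 for the others. Of the mesenchymal and bone markers, 10 of 11 were measured. COL1A1, SPARC and VIM stood at percentiles 98.0, 98.0 and 97.5 of all probe sets by mean level, and FN1 and CDH2 at 96.4 and 95.8. SPP1 stood at percentile 63.1, RUNX2 at 59.8 and COL1A2 at 43.2, while the bone markers SP7 and ALPL stood at 36.0 and 38.6. Of the blood markers 4 of 5 were measured, with PTPRC at percentile 9.01, CD3E at 21.7, HBB at 21.8 and CD14 at 45.8. CD14 thus stood above COL1A2, SP7 and ALPL. The epithelial markers EPCAM and CDH1 stood at percentiles 32.1 and 29.0, with KRT8 and KRT18 at 97.3 and 94.7 and CLDN4 and KRT19 at 52.8 and 49.6. The array means of the marker lists overlapped between treatments. They ran from 9.22 to 9.39 after PD0332991 and 9.15 to 9.42 in DMSO for the mesenchymal list, and from 7.85 to 8.25 after PD0332991 and 7.70 to 8.14 in DMSO for the epithelial list. For the blood list they ran from 4.80 to 5.47 after PD0332991 and 4.86 to 5.38 in DMSO, and for the proliferation markers MKI67 and TOP2A from 10.39 to 11.19 after PD0332991 and 10.54 to 11.16 in DMSO.

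All 4 genes of the CENP-A nucleosome and its deposition were measured, and all 4 had log2 fold changes below 0, with a median of -0.10. HJURP, the CENP-A chaperone, had the largest difference among them. Its log2 values were 9.82, 9.75, 10.01, 9.31 and 9.50 in PD0332991 replicates 1 to 5, against 10.16, 10.12, 10.19, 9.92 and 9.83 in DMSO replicates 1 to 5. The treatments overlapped over all arrays, but within each array set every PD0332991 value of HJURP lay below every DMSO value. HJURP averaged 9.68 ± 0.27 after PD0332991 and 10.05 ± 0.16 in DMSO (log2, SD, n = 5), a log2 fold change of -0.37 ± 0.09 (SE, 95% confidence interval -0.58 to -0.16) that did not pass (limma adjusted p = 0.592).

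CENPA, the centromeric histone H3 variant, had log2 values of 9.86, 9.95, 10.12, 9.74 and 9.87 after PD0332991, against 10.13, 9.99, 9.95, 9.97 and 9.98 in DMSO. These ranges overlapped through PD0332991 replicate 3 alone, and the log2 fold change of CENPA was -0.10 (-0.30 to 0.11, limma adjusted p = 1.00). OIP5 and MIS18A encode both Mis18 subunits that prepare centromeres for new CENP-A. Their log2 fold changes were -0.11 (-0.44 to 0.22) and -0.02 (-0.25 to 0.21). Before adjustment the interval of the chaperone transcript lay below 0 and those of the histone and the Mis18 transcripts included 0. The difference between them was not tested.

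The CCAN was measured through 6 of its 11 listed members, of which 5 were at log2 fold changes below 0 and 1 above, around a median of -0.13. CENPM, a member of the CENP-H, CENP-I, CENP-K and CENP-M assembly, differed most. Its log2 values were 9.29, 9.12, 9.00, 10.01 and 9.83 after PD0332991, against 9.88, 9.44, 9.29, 10.44 and 10.44 in DMSO. CENPM was far higher in array set 2 than in array set 1 under both treatments, so the treatments overlapped over all arrays. Within array set 1 the highest PD0332991 value lay just below the lowest DMSO value, and within array set 2 the gap was wider. The log2 fold change was -0.45 ± 0.12 (SE, n = 5, 95% confidence interval -0.73 to -0.17), a 1.37-fold lower value that did not pass (limma adjusted p = 0.652).

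For the partners of CENPM in that assembly the intervals included 0 and overlapped that of CENPM, and the differences between them were not tested. CENPI had log2 values of 8.54, 8.25, 8.60, 8.12 and 8.06 after PD0332991, against 8.04, 8.74, 8.95, 8.31 and 8.36 in DMSO. DMSO replicate 1 held the lowest CENPI value of all arrays and the other 4 DMSO arrays lay above every PD0332991 array of their own set. The log2 fold change of CENPI was -0.17 (-0.53 to 0.20). Without DMSO replicate 1 it was -0.32 (-0.54 to -0.10, limma adjusted p = 0.555), and without DMSO replicate 3 it was -0.07. The log2 fold changes of CENPK and CENPH were -0.0012 and 0.04, with intervals reaching from -0.41 to 0.40 and from -0.52 to 0.60. Without DMSO replicate 1 they were -0.18 (-0.41 to 0.05) and -0.06, and without DMSO replicate 3 they were 0.09 and 0.14.

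CENPQ and CENPU belong to the CENP-O, CENP-P, CENP-Q, CENP-U and CENP-R assembly, which helps bring the kinase PLK1 to kinetochores. CENPQ had log2 values of 5.87, 5.76, 6.23, 4.97 and 5.73 after PD0332991, against 5.75, 5.79, 6.78, 5.79 and 5.48 in DMSO. It was dim, near the lower quartiles of the arrays (5.05 to 5.44), and its log2 fold change of -0.21 had an interval from -0.71 to 0.30. Without DMSO replicate 3, its highest array, the log2 fold change of CENPQ was -0.03, and without PD0332991 replicate 4, its lowest, it was -0.07. CENPU had log2 values of 7.41, 7.45, 7.76, 7.27 and 7.53 after PD0332991, against 7.47, 7.74, 7.63, 7.52 and 7.54 in DMSO. Its treatments overlapped and its log2 fold change was -0.09 (-0.33 to 0.14).

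CENPE carries a CENP name but encodes a kinesin motor of the kinetochore corona, made late in the cell cycle. Its log2 fold change was 0.14 (-0.28 to 0.55). Counted with the outer kinetochore genes, it moved the median log2 fold change of the remaining CENP and deposition genes from -0.096 to -0.103. That of the enlarged outer group moved from -0.091 to -0.071, and the difference of medians from -0.005 to -0.032. This difference moved from -0.003 to -0.018 in array set 1 alone and from -0.095 to -0.135 in array set 2 alone.

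The MIS12 complex links the inner centromere to the NDC80 complex, and it held the gene with the largest treatment difference of the list. DSN1, a subunit that contacts CENP-C under control of Aurora B, had log2 values of 8.47, 8.26, 8.72, 8.27 and 8.12 after PD0332991, against 8.94, 8.98, 9.12, 8.76 and 8.82 in DMSO. Every PD0332991 array lay below every DMSO array, an order found in 0.689% of all measured genes and in 1 of these 26. The gap was narrow, between PD0332991 replicate 3 and DMSO replicate 4. DSN1 averaged 8.37 ± 0.23 after PD0332991 and 8.93 ± 0.14 in DMSO (log2, SD, n = 5), a log2 fold change of -0.56 ± 0.10 (SE, 95% confidence interval -0.79 to -0.32). This is a 1.47-fold lower value (1.25 to 1.73) that did not pass over all probe sets (limma adjusted p = 0.207). With arrays weighted by their quality it did pass (limma adjusted p = 0.0236), in a fit that called 50 probe sets lower (0.227%), against 9 in the unweighted fit. The estimation of these array weights stopped before reaching its convergence tolerance, so values under them are provisional.

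MIS12, which gives the complex its name, had log2 values of 8.73, 8.46, 8.88, 8.08 and 8.54 after PD0332991, against 8.83, 9.21, 9.17, 8.50 and 8.75 in DMSO. PD0332991 replicates 3 and 5 overlapped the DMSO values of their own sets. The log2 fold change of MIS12 was -0.36 ± 0.14 (SE, 95% confidence interval -0.66 to -0.06, limma adjusted p = 1.00). NSL1, a further subunit, stood at 0.06 with an interval from -0.39 to 0.51. In the main fit the complex held the lowest log2 fold change of the list beside one near 0. NSL1 had opposite signs in the array sets (0.20 in set 1 and -0.15 in set 2). Its log2 fold change was -0.14 (-0.41 to 0.13) without DMSO replicate 1 and 0.14 without DMSO replicate 3.

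**Figure D2:**
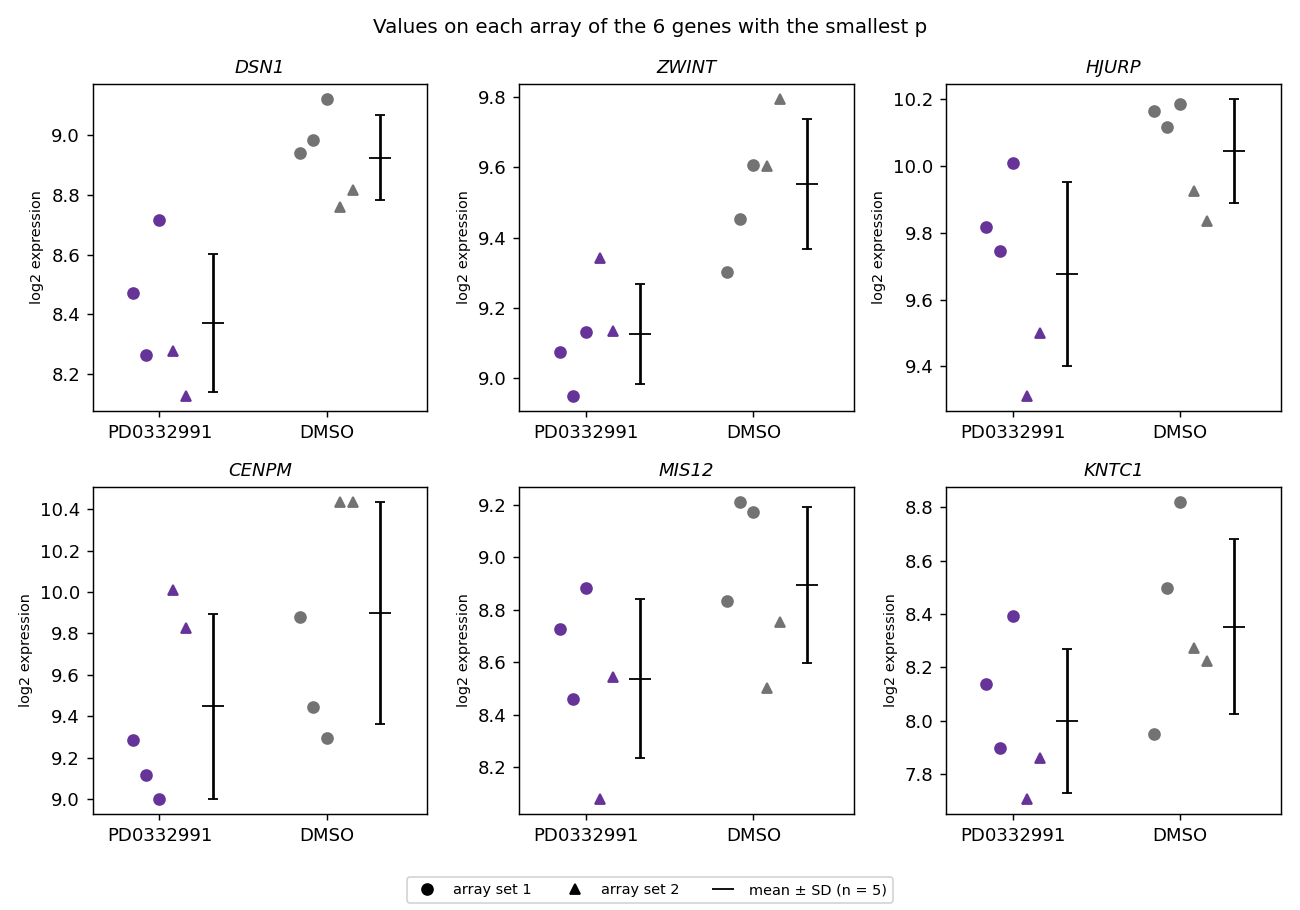
Log2 expression on each array for the 6 genes with the smallest treatment p, PD0332991 left and DMSO right; circles are array set 1, triangles array set 2, and bars the mean ± SD (n = 5). DSN1 is the gene without overlap between treatments, and ZWINT, HJURP and CENPM are separated within each array set but not over all arrays.

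The NDC80 complex forms the main microtubule grip of the kinetochore, and all 4 of its genes were measured. Their log2 fold changes lay between -0.14 and 0.08, with a median of -0.10, and no interval left out 0. NDC80 had log2 values of 8.85, 8.70, 9.29, 8.17 and 8.44 after PD0332991, against 8.56, 9.12, 9.37, 8.44 and 8.46 in DMSO. Both treatments spanned about the same range, and its log2 fold change was -0.10 (-0.47 to 0.27). SPC25 and SPC24, which anchor the complex to MIS12, had -0.14 and -0.09. NUF2, the partner of NDC80 at the microtubule end, had 0.08, with an interval from -0.45 to 0.60.

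ZWINT and the RZZ complex dock on the outer kinetochore and bring dynein and the checkpoint proteins MAD1 and MAD2 to it. ZWINT, which binds KNL1, had log2 values of 9.08, 8.95, 9.13, 9.34 and 9.14 after PD0332991, against 9.30, 9.45, 9.61, 9.60 and 9.80 in DMSO. A single crossing, of PD0332991 replicate 4 over DMSO replicate 1 from the other array set, made the treatments overlap. Within each array set they did not overlap. ZWINT averaged 9.13 ± 0.14 after PD0332991 and 9.55 ± 0.19 in DMSO (log2, SD, n = 5), a log2 fold change of -0.43 ± 0.10 (SE, 95% confidence interval -0.64 to -0.21), which is 1.34-fold lower and did not pass (limma adjusted p = 0.431).

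KNTC1, the largest subunit of the RZZ complex (named ROD in flies), had log2 values of 8.14, 7.90, 8.39, 7.70 and 7.86 after PD0332991, against 7.95, 8.50, 8.82, 8.27 and 8.22 in DMSO. DMSO replicate 1 lay among the PD0332991 values and the other 4 DMSO arrays lay above all PD0332991 arrays but replicate 3. The log2 fold change of KNTC1 was -0.35 (-0.72 to 0.01), and it was -0.49 without DMSO replicate 1. ZW10, the RZZ subunit that binds dynein adaptors, stood at 0.11 (-0.23 to 0.45). SKA1, a subunit of the SKA complex that holds kinetochores on depolymerising microtubules, stood at -0.05 (-0.42 to 0.31).

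The spindle checkpoint genes were split, 2 with log2 fold changes below 0 and 2 above, with a median of 0.02, and none had an unadjusted p under 0.05. BUB3, which carries BUB1 and BUBR1 to kinetochores, had log2 values of 10.86, 10.69, 10.80, 10.77 and 10.97 after PD0332991, against 10.94, 11.03, 11.10, 11.01 and 10.93 in DMSO. Only PD0332991 replicate 5 reached into the DMSO range, and the log2 fold change of BUB3 was -0.18 (-0.38 to 0.02). BUB1, a kinase that marks centromeric histone H2A for shugoshin, had log2 values of 10.13, 10.08, 10.43, 9.71 and 9.92 after PD0332991, against 9.86, 10.09, 10.29, 9.84 and 9.86 in DMSO. Its treatments overlapped throughout and its log2 fold change was 0.07 (-0.19 to 0.33).

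MAD2L1 encodes MAD2, the inhibitor of CDC20 that the checkpoint releases. It had log2 values of 9.33, 9.23, 9.53, 9.14 and 9.69 after PD0332991, against 8.95, 9.64, 9.62, 9.43 and 9.41 in DMSO, and a log2 fold change of -0.02 (-0.38 to 0.33). TTK, the MPS1 kinase that starts checkpoint signalling, had log2 values of 8.56, 8.50, 9.21, 7.76 and 8.12 after PD0332991, against 8.06, 8.60, 8.87, 7.87 and 7.82 in DMSO. Its log2 fold change of 0.18 was the highest of the 26, with an interval from -0.23 to 0.60. Both genes overlapped between treatments in each array set.

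The CENP and deposition genes and the outer kinetochore and checkpoint genes had nearly equal medians, -0.10 and -0.09, with a difference of medians of -0.01 on the log2 scale. Of the CENP and deposition genes 9 of 11 had log2 fold changes below 0, and of the outer genes 10 of 15, against 55.3% of all measured genes. At an unadjusted limma p under 0.05, 2 of 11 (HJURP and CENPM) and 3 of 15 (DSN1, ZWINT and MIS12) were lower, against 2.52% of all measured genes. The array means of the CENP and deposition group averaged 8.45 ± 0.19 after PD0332991 and 8.57 ± 0.16 in DMSO (log2, SD, n = 5), a difference of -0.12. Those of the outer group averaged 8.92 ± 0.21 after PD0332991 and 9.04 ± 0.22 in DMSO, a difference of -0.12 as well. Both differences were smaller than the SD between arrays of one treatment. That SD describes single arrays and includes the array set difference, so it does not measure the error of a difference of means. Within arrays, the CENP and deposition mean minus the outer mean averaged -0.47 ± 0.03 after PD0332991 and -0.47 ± 0.08 in DMSO (log2, SD, n = 5). No p is given for these group values, because the genes were chosen with earlier results of the arrays known.

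The treatment differences by array set are plotted beside each other. In array set 1 alone the median log2 fold change of the 26 genes was -0.07, and in array set 2 alone -0.11. For the CENP and deposition genes the medians were -0.07 and -0.17, and for the outer kinetochore and checkpoint genes -0.07 and -0.08. Of the 26 genes, 15 were lower in both sets, 4 were higher in both and 7 had opposite signs, where 30.0% of all measured genes were lower in both. Every PD0332991 array lay below every DMSO array of its own set for DSN1, ZWINT, HJURP and CENPM, which is 4 of 26 or 15.4%, against 1.7% of all measured genes. The opposite order was found in 0 of 26, against 0.899%. limma's interaction between treatment and array set was called for 0 of the 26 genes and for 0% of all probe sets (at an unadjusted p under 0.05, 0 of 26 genes and 1.24% of all measured genes).

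**Figure D3:**
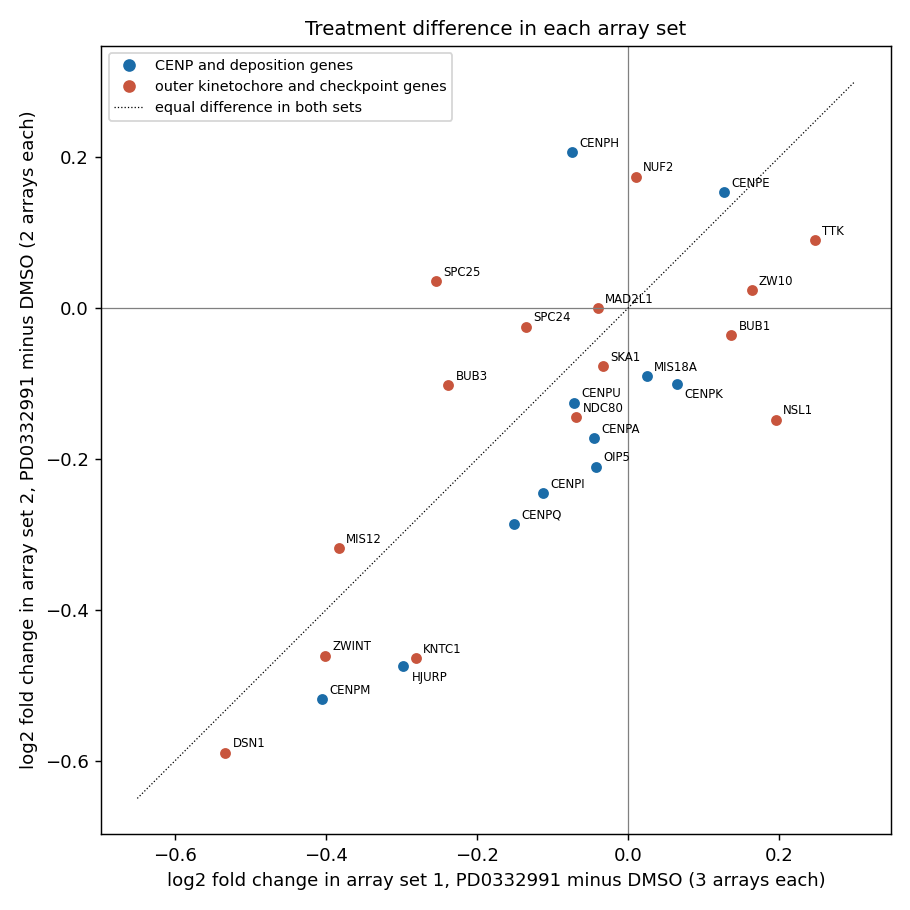
Log2 fold change (PD0332991 minus DMSO) in array set 1 (horizontal, 3 arrays of each treatment) and array set 2 (vertical, 2 arrays of each) for the 26 genes; colours mark the gene groups and the dotted line marks equal differences. DSN1, ZWINT, CENPM, HJURP, MIS12 and KNTC1 lie below 0 on both axes, at -0.28 or lower, and 7 genes have opposite signs in the sets.

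The genes varied together from array to array. In PD0332991 replicate 3, 24 of the 26 lay above their own mean for that treatment and array set, against 42.9% of all measured genes on that array. In DMSO replicates 3 and 2, 23 and 20 of 26 did, against 43.1% and 45.1% of all genes. In DMSO replicate 1 only 4 of 26 lay above, CENPA among them, against 59.3% of all genes. The arrays of a treatment in array set 1 share a mean, so a low array raises the counts of the others. In array set 2 the PD0332991 arrays divided into 21 of 26 above in replicate 5 and 5 of 26 in replicate 4, each count being the complement of the other because 2 arrays share a mean, and DMSO replicates 4 and 5 had 13 each. Both gene groups moved alike in their array means. Relative to its mean over the 10 arrays, the CENP and deposition group stood at -0.32 in PD0332991 replicate 4 and 0.28 in DMSO replicate 3 (log2), and the outer group at -0.34 and 0.32 on those arrays. The widest interquartile ranges of all probe sets were those of PD0332991 replicate 3 and DMSO replicate 3 (3.68 and 3.61), and the narrowest that of DMSO replicate 1 (3.18). The part of this spread in the gene values was not tested.

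**Figure D4:**
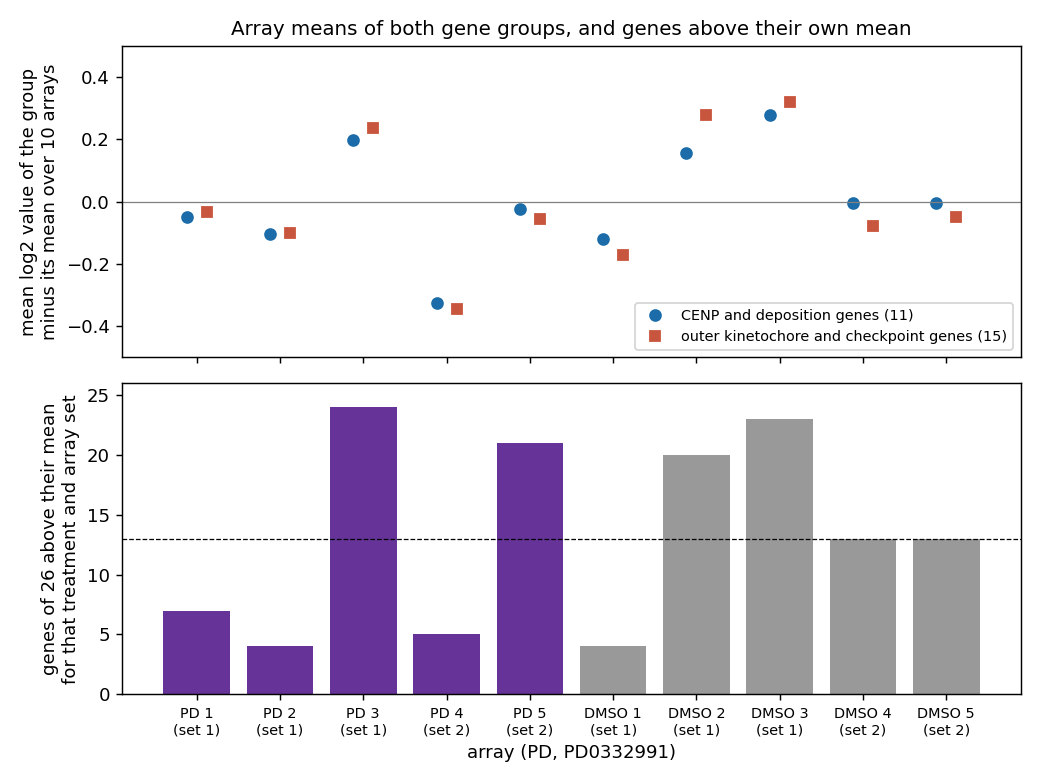
Top, mean log2 value of each gene group on each array minus its mean over the 10 arrays; bottom, number of the 26 genes above their own mean for that treatment and array set (dashed line at 13), PD0332991 arrays left and DMSO arrays right. Both groups move together from array to array, from PD0332991 replicate 4 (-0.32 and -0.34) to DMSO replicate 3 (0.28 and 0.32), and the count runs from 4 to 24.

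The counts moved when single arrays were left out. Without DMSO replicate 1, 24 of 26 genes lay below 0 (46.8% of all measured genes), around a median of -0.14. In that fit 8 genes had an unadjusted p under 0.05, CENPI, KNTC1 and BUB3 in addition to DSN1, ZWINT, HJURP, CENPM and MIS12 (3.53% of all measured genes were lower at that p), with 0 called. Without PD0332991 replicate 3 the median was -0.15. Leaving out either PD0332991 replicate 1 or DMSO replicate 2 gave -0.06, and leaving out either PD0332991 replicate 4 or DMSO replicate 3 gave -0.05. In the fit that lacked PD0332991 replicate 4, 15 of 26 genes were lower, against 58.1% of all measured genes. With arrays weighted by their quality, which gave DMSO replicate 1 the lowest weight (0.147), all 26 genes lay below 0, against 45.3% of all measured genes, with a median of -0.19. DSN1 lay between -0.62 and -0.50 in the 10 fits that left out 1 array, ZWINT between -0.47 and -0.39, HJURP between -0.42 and -0.32 and CENPM between -0.52 and -0.36.

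The array sets also differed from each other in some of these genes, whatever the treatment. This contrast was added after the values were seen. CENPM averaged 10.18 in array set 2 and 9.34 in array set 1, a log2 difference of 0.84 (limma adjusted p = 0.0117). CENPE averaged 6.86 in array set 2 and 7.88 in array set 1, a difference of -1.02 (limma adjusted p = 0.0226). These are 1 of 26 genes called higher and 1 of 26 called lower in set 2, against 2.49% and 0.942% of all measured genes. TTK, NDC80 and HJURP had set differences of -0.74, -0.61 and -0.37, which did not pass (limma adjusted p = 0.0641, 0.0849 and 0.0696). For CENPM the difference between array sets was larger in size than its treatment difference of -0.45.

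Other genes of the same machinery, not picked for how they moved but listed with earlier results of these data known, were measured for 23 of 29. None was called in either direction, 14 had log2 fold changes below 0 and 9 above (60.9% below, against 55.3% of all measured genes), and the median was -0.06. The 4 with the smallest p were CENPV, AURKB, INCENP and ERCC6L. CENPV, a centromere protein linked to heterochromatin, had -0.23 (-0.41 to -0.05). The chromosomal passenger complex corrects faulty attachments, and its kinase AURKB and scaffold INCENP had -0.22 (-0.42 to -0.01) and -0.18 (-0.39 to 0.03). AURKB had log2 values of 9.58, 9.54, 9.44, 9.51 and 9.48 after PD0332991, against 9.93, 9.65, 9.59, 9.72 and 9.75 in DMSO, with every PD0332991 array below every DMSO array, an order held by 1 of these 23 genes and by 0.689% of all measured genes. The other subunits of that complex on the list, BIRC5 and CDCA8, had 0.06 and 0.01. ERCC6L, a translocase of ultrafine anaphase bridges, had -0.28 (-0.68 to 0.13).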

How the data were processed

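Per the labels, total RNA was hybridised as biotin-labelled single-stranded cDNA. The authors deposited log2 values, 1 per gene-level probe set and array (21980 probe sets, 10 arrays). RMA and Partek, with no versions, and genome build hg18 are named in the submitters' processing notes. RMA compresses differences of dim genes, and detection calls were not used here. Probe sets were named through the platform annotation, with 0 symbols changed against RefSeq, and a gene was represented by its brightest single-symbol probe set (14232 genes). limma 3.58.1 (R 4.3.3) tested treatment 2-sided with array set as covariate and Benjamini-Hochberg adjustment over all probe sets at 0.05, and the procedure was tested on simulated data. Intervals are 95%. The genes, lists and tests were chosen with earlier results of these data known. Array values are given for the 6 genes of each group with the smallest p and for CENPA, HJURP, NDC80, BUB1, MAD2L1 and TTK. The 4 other pathway genes with the smallest p are named, and BIRC5, CDCA8 and the array values of AURKB were added after their values were seen. Alternatives covered the model, normalization, filters, array weights and left-out arrays. Matplotlib 3.10.9 (Python 3.11.15) drew the figures.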

Additional observations from a re-analysis of the deposited data

Results flagged for a closer look

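In each treatment group of 5 arrays, the highest or lowest array was compared with its nearest neighbour as a share of the group's range, and 3 of 52 such groups of single genes lay above Dixon's 95% critical value, where chance gives about 1 in 20. For CENPA, DMSO replicate 1 stood high at 10.13 (share 0.786). For MIS18A, DMSO replicate 1 stood low at 10.28 (share 0.727). For CENPQ, DMSO replicate 3 stood high at 6.78 (share 0.766).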

How the results depend on the processing

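The count of called genes was 0 in each direction in the main fit and in every alternative but array weighting, which called 1 lower (DSN1) and 50 probe sets lower in all (9 in the main fit). The count of genes lower without overlap was 1 in the main values (0.689% of all genes). It was 3 after quantile normalization (0.745%) or cyclic loess (0.787%) and 0 after median centring (0.597%). It was 2 without both arrays numbered 1 (1.67%), 5 in array set 1 alone (4.42%) and 9 in array set 2 alone (17.6%). Leaving out 1 array gave counts from 1 to 3 (0.829% to 1.39% of all genes). Genes lower at an unadjusted p under 0.05 numbered 5 in the main fit (2.52% of all genes) and 3 without array set in the model (1.92%). They numbered 2 in array set 1 alone (1.31%), 10 under array weighting (4.34%) and 4 to 8 with 1 array left out (1.71% to 3.53%). With 1 array left out, 15 to 24 genes were lower (46.8% to 58.4% of all genes), and the median of the members ran from -0.15 to -0.05. In those fits the median of the CENP and deposition genes ran from -0.18 to -0.05 and that of the outer genes from -0.16 to -0.02. The difference of medians ran from -0.0586 to 0.00669. That difference was -0.10 in array set 2 alone. The causes were not tested. Of 597 member fold changes under an alternative, 44 turned sign, in 12 genes whose values were within 0.185 of 0, and 14 genes never did. Signs turned with array weights for CENPH (-0.161), CENPE (-0.0275), NSL1 (-0.12), NUF2 (-0.165), ZW10 (-0.0401), BUB1 (-0.0325) and TTK (-0.0020), without both arrays numbered 1 for NSL1 (-0.186) and NUF2 (-0.0527), after median centring for CENPK (0.0125), in array set 1 alone for MIS18A (0.0244), CENPH (-0.0743) and CENPK (0.0647), and in array set 2 alone for NSL1 (-0.148), SPC25 (0.0355), BUB1 (-0.0356) and MAD2L1 (2e-05). With 1 array left out, signs turned in some fits for MIS18A (-0.0965 to 0.0232), CENPH (-0.152 to 0.186), CENPK (-0.179 to 0.0866), CENPE (-0.0101 to 0.234), NSL1 (-0.14 to 0.137), NUF2 (-0.105 to 0.269), ZW10 (-0.0168 to 0.196), SKA1 (-0.157 to 0.0539), BUB1 (-0.0018 to 0.116) and MAD2L1 (-0.145 to 0.0565). Deviations from the treatment mean correlated at 0.541 between the arrays numbered 3, and at 0.0354 to 0.23 for the other numbers. With array set also removed these were 0.403 and -0.0546 to 0.0882. Numbers 4 and 5 then share 1 value (-0.0546) by construction, since 2 arrays that share a mean deviate from it as mirror images. Of the 5 PD0332991 arrays, 2 best matched the DMSO array of their own number. Whether the replicate numbers pair the arrays was not tested further. With replicate number as a block, 0 genes were called and 6 were lower at an unadjusted p under 0.05 (2.99% of all genes). Leaving out the dimmest 33.3% of probe sets removed CENPQ. The number of arrays limits all of these values, and signal over background was not used here.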
